A study of Homo sapiens with 6 samples.

Results

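Genes of glucose uptake and of the first steps of glycolysis were described in BRCA2 knockout and wild-type cells of HCT116, a line of human colon carcinoma. BRCA2 is a mediator of homologous recombination. The set comprised 10 genes chosen by measured values of the same arrays, because the log2 value of HKDC1 was higher and that of PFKP lower in the knockout. The values of the genotype comparison therefore describe the members and are not tested. A gene was represented by a probe set with 1 annotated gene symbol, and 9 of the 10 genes had exactly 1 such probe set, out of 13139 genes so represented on the arrays. CA9, which encodes a cell-surface carbonic anhydrase induced by hypoxia, had none and was not analysed here. In the BRCA2 knockout cells each allele of the gene had been disrupted by gene targeting, one after the other, and the wild-type cells were HCT116 cells of a repository. Both were grown in McCoy's medium with serum, and neither received a drug or other treatment according to the labels. Each genotype had 3 whole-transcript arrays, which the titles call technical replicates, while the protocol speaks of 3 frozen samples per genotype. Whether these came from separate cultures is not stated, so errors and p-values cover only the variation among arrays, which may be technical. With 1 line per genotype in these data, loss of BRCA2 and other differences between the lines cannot be told apart. No probe set with BRCA2 as its single symbol was found, so the genotype labels were not checked against the targeted gene.

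Glucose enters most cells through facilitative transporters, of which SLC2A1 (GLUT1) is the widespread one, and is trapped by hexokinases as a phosphate ester. Phosphofructokinase then commits the sugar to glycolysis, and is activated by a bisphosphate that PFKFB3 makes. Lactate dehydrogenase A reduces the resulting pyruvate to lactate, the end product favoured by many colon carcinoma cells. Several of these genes are known targets of the hypoxia-inducible factors (HIF), which bind DNA at a short core sequence. ACGTG is a form of that core.

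The arrays differed in their overall distributions. The median log2 value over 19458 probe sets was 7.41, 7.80 and 7.41 on knockout arrays 1, 2 and 3, against 7.71, 7.36 and 7.48 on wild-type arrays 1, 2 and 3. Knockout array 2 and wild-type array 1 thus had the highest medians, and values are given with and without them where that matters. All 8 colon epithelium markers examined were measured, and the mean log2 value over them was 10.24, 10.17 and 10.60 on the knockout arrays, against 9.71, 9.95 and 9.79 on the wild-type arrays. The 8 markers were all higher in the knockout on average, 5 of them without overlap between the genotypes, where 21.2% of all 13139 genes did not overlap in either direction, and 0 of them past an adjusted p of 0.05 in limma (1 at an unadjusted p under 0.05). Of 9 measured markers of blood, stromal, neural and liver cells, 7 were higher in the knockout, 3 of them without overlap (COL1A1, GFAP and CD68, the first at 1.10), and the mean over them ran from 6.63 to 7.42 on knockout arrays and from 6.13 to 6.95 on wild-type arrays. The part of these marker shifts in the results below was not tested. On an array a lower RNA level per cell and fewer expressing cells cannot be told apart.

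The members' promoter sequences are shown first, since they differ in whether they hold ACGTG, the form of the hypoxia core searched here. The sequences are RefSeq's, of the build GRCh38.p14, and cover the 250 bases before the first start listed for each gene. They are written from 5′ to 3′ in the direction of the gene, with ACGTG and its reverse complement CACGT in capitals. HKDC1 (chr10:69220082-69220331 on the plus strand) is shown as the member with the largest difference, and HK2 (chr2:74833877-74834126 on the plus strand) as the other hexokinase gene that was higher in the knockout. PFKP (chr10:3067720-3067969 on the plus strand) is shown as the lowest of the members in its difference. SLC2A1 (chr1:42958869-42959118 on the minus strand) and LDHA (chr11:18394313-18394562 on the plus strand) represent glucose uptake and lactate production.
HKDC1: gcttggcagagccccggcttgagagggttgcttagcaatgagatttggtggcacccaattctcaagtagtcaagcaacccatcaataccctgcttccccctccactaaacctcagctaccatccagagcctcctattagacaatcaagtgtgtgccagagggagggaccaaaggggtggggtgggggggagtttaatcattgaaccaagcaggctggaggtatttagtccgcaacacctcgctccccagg
HK2: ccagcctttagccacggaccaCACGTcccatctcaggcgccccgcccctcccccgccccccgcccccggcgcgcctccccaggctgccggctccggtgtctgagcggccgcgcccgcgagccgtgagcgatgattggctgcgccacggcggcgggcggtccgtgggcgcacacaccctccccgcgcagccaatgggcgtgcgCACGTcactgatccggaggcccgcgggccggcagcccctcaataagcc
PFKP: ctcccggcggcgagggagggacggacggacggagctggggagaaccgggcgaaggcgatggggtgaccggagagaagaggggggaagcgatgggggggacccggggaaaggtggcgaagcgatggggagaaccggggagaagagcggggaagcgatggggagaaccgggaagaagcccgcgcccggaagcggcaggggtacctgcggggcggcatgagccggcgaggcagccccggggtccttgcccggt
SLC2A1: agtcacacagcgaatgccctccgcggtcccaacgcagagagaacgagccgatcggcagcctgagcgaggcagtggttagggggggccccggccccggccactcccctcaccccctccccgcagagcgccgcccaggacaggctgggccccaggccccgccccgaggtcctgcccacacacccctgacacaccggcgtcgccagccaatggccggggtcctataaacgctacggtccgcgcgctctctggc
LDHA: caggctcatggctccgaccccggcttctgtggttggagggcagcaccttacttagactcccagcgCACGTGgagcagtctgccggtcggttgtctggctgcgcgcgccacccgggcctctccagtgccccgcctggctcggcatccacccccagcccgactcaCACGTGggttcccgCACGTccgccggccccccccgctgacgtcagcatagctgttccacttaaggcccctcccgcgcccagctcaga
Searched on both strands, ACGTG was present in 18.5% of the 35116 windows of this length before RefSeq gene starts. The window of HKDC1 held no match, and neither did the single windows of PFKL and SLC2A1 or any of 7 windows of HK1. Matches were found in both windows of HK2, in 1 of 4 of PFKP, in 1 of 7 of PFKM, in 1 of 2 of PFKFB3 and in 1 of 2 of LDHA. In total 6 of the 27 windows of the 9 measured members held a match, beside the 18.5% of all windows. A gene with more windows has more occasions to hold one. The longer E-box CACGTG, which holds the core on both strands and was found in 6.34% of all windows, occurred in windows of HK2, PFKFB3 and LDHA. The windows also differed in their number of CpG dinucleotides, with 3 before HKDC1, against 34 in the window printed for HK2, 28 for PFKP, 24 for SLC2A1 and 22 for LDHA (median over all windows 11.0). A window with 3 or fewer CpG was found at 29.3% of all starts. Other forms of the hypoxia core were not searched, so a window without a match may still hold one. A match of letters is a description of the sequence and not a binding site.

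Among the hexokinase genes, HKDC1 and HK2 were higher in the BRCA2 knockout and HK1 was not separated between the genotypes. HKDC1 encodes a hexokinase domain protein that resembles HK1, beside which it lies on chromosome 10. Its log2 values were 10.42, 10.08 and 10.85 on knockout arrays 1, 2 and 3, against 6.76, 6.96 and 6.84 on wild-type arrays 1, 2 and 3. Every knockout array was more than 3 log2 units above every wild-type array. The mean was 10.45 ± 0.38 in knockout and 6.85 ± 0.10 in wild type (SD, n = 3 arrays each), a log2 difference of 3.60 ± 0.29 (SE) or 12.1-fold. This difference ranked 39 among the 19458 probe sets in descending order.

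HK2, the hexokinase isoform typical of insulin-sensitive tissue and of many tumours, had log2 values of 9.23, 9.40 and 9.86 on the knockout arrays and of 8.70, 8.45 and 8.80 on the wild-type arrays. The groups did not overlap, and the difference was 0.85 ± 0.28 on the log2 scale, or 1.80-fold. HK1, the ubiquitous isoform, had log2 values of 6.13, 7.34 and 6.30 on the knockout arrays and of 6.84, 6.53 and 7.31 on the wild-type arrays. Knockout array 2, the array of highest median, carried the highest HK1 value of all 6, and the groups overlapped (difference -0.31 ± 0.40). Without that array the difference in HK1 was -0.68. A comparison within each array removes a shift common to all probe sets of that array, but not one that differs between probe sets. Of the knockout arrays, array 2 had the lowest HKDC1 value and the highest HK1 value. The knockout SD of the 2 genes' difference was therefore larger than the 0.38 of HKDC1 alone. The log2 value of HKDC1 minus that of HK1 was 3.87 ± 0.98 in knockout and -0.039 ± 0.45 in wild type (SD, n = 3 arrays each), a change of 3.90. The size of either term reflects the probes as well as the RNA, and only the change between genotypes can be read.

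**Figure D1:**
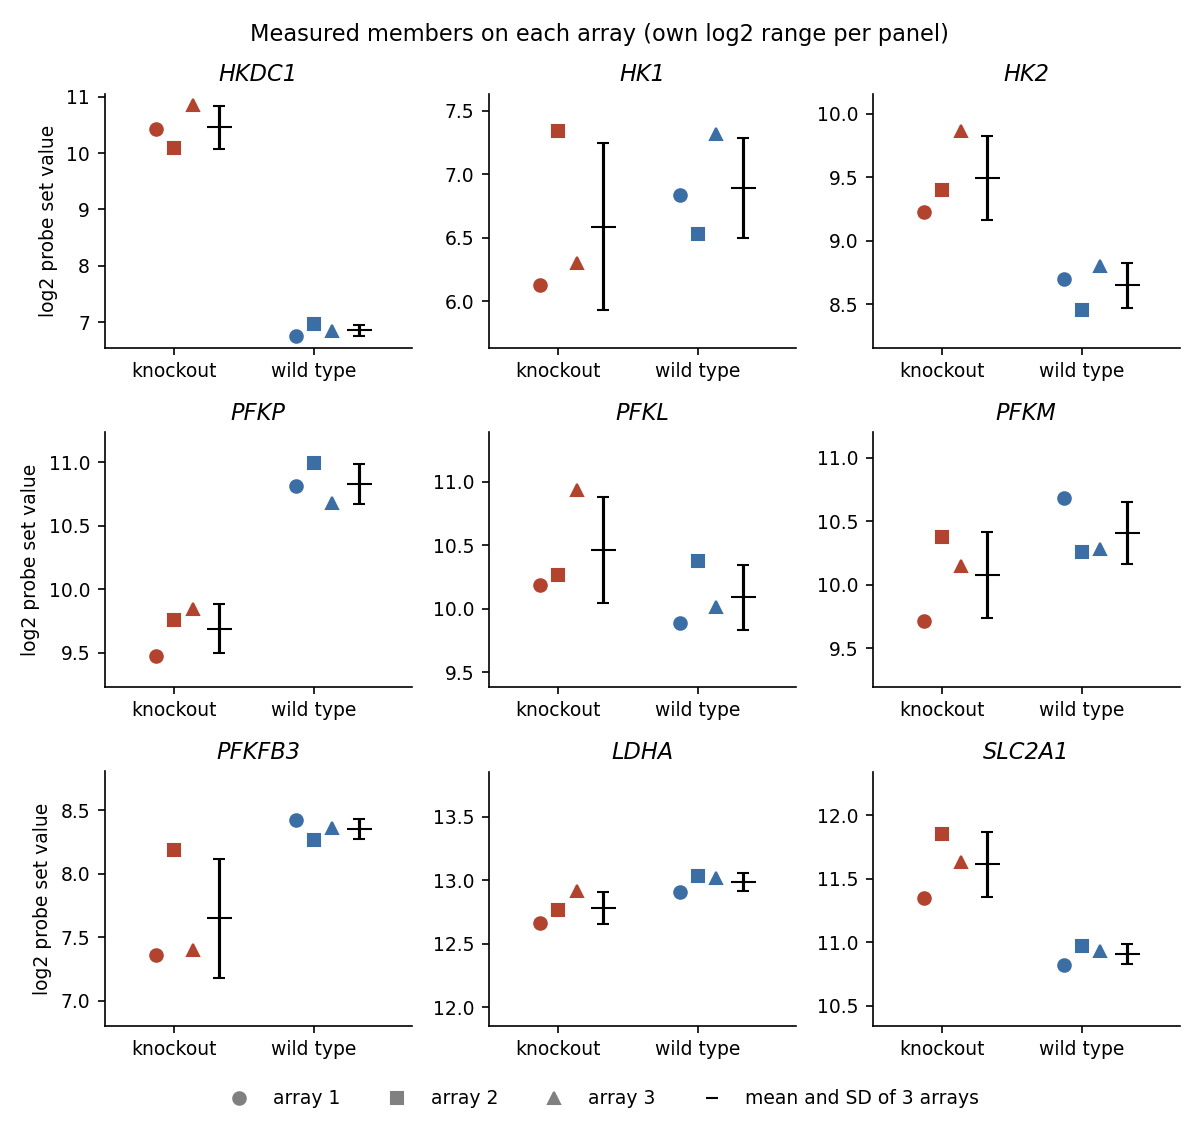
Log2 probe set values of the 9 measured genes on each array, with knockout arrays on the left and wild-type arrays on the right of each panel, symbols for arrays 1 to 3, and the mean with SD beside them; each panel has its own log2 range. HKDC1, HK2 and SLC2A1 were higher and PFKP and PFKFB3 lower on every knockout array, and knockout array 2 lay above the other knockout arrays for HK1 and PFKFB3.

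Of the phosphofructokinase subunit genes, PFKP was lower in the knockout, and PFKL and PFKM were not separated between the genotypes. PFKP, the platelet-type subunit, had log2 values of 9.47, 9.75 and 9.84 on the knockout arrays, against 10.81, 11.00 and 10.68 on the wild-type arrays. All knockout arrays lay below all wild-type arrays, with means of 9.69 ± 0.19 in knockout and 10.83 ± 0.16 in wild type. The log2 difference was -1.14 ± 0.25 (SE), which corresponds to a 2.20-fold lower value in the knockout. PFKL, the liver-type subunit, had log2 values of 10.19, 10.26 and 10.94 on the knockout arrays and of 9.89, 10.37 and 10.01 on the wild-type arrays. Its groups overlapped, and the difference of 0.37 ± 0.31 became 0.13 without knockout array 3. PFKM, the muscle-type subunit, overlapped as well, with 9.71, 10.37 and 10.15 on the knockout arrays and 10.68, 10.26 and 10.28 on the wild-type arrays (difference -0.33 ± 0.29, with -0.15 without knockout array 1 and -0.19 without wild-type array 1). Centred on each array's median, the PFKM groups did not overlap and the difference was -0.35. Within arrays, the log2 value of PFKL minus that of PFKP was 0.77 ± 0.30 in knockout and -0.74 ± 0.16 in wild type (SD, n = 3 arrays each), a change of 1.51.

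PFKFB3, the kinase and phosphatase whose product activates phosphofructokinase, had log2 values of 7.36, 8.19 and 7.40 on the knockout arrays, against 8.42, 8.27 and 8.36 on the wild-type arrays. The knockout arrays were all lower, but array 2 came within 0.1 log2 units of the wild type. The difference was -0.70 ± 0.31 with all arrays and -0.97 without knockout array 2. Its relative PFKFB4, of the same enzyme family, was listed among the other control genes and is given below.

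SLC2A1, the GLUT1 glucose transporter gene, was higher in the knockout, and LDHA was not separated between the genotypes. SLC2A1 had log2 values of 11.35, 11.86 and 11.63 on the knockout arrays, against 10.82, 10.97 and 10.93 on the wild-type arrays. The groups did not overlap, and the difference was 0.70 ± 0.26 on the log2 scale, or 1.63-fold. LDHA had log2 values of 12.66, 12.76 and 12.92 on the knockout arrays and of 12.91, 13.04 and 13.02 on the wild-type arrays. The highest knockout array of LDHA lay just above the lowest wild-type array, and the difference of -0.21 ± 0.24 was smaller than its error. Values this high are near the upper end of the array scale, where the largest value on any array was 14.14. Within arrays, SLC2A1 minus LDHA was -1.17 ± 0.23 in knockout and -2.08 ± 0.014 in wild type, a change of 0.91.

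The genotypes' arrays did not overlap for 5 of the 9 measured members, with 3 higher and 2 lower in the knockout, where 19.7% of all probe sets did not overlap, 12% as higher and 7.7% as lower. In limma, 1 member, HKDC1, had an adjusted p under 0.05 with the fit over all probe sets, against 0.57% of probe sets called in either direction, and 0 members had one without both arrays of highest median. As this contrast chose the members, nothing is read from these counts. The median log2 difference was -0.21 over the 9 members and 0.073 over all 13139 genes. Each of the 9 differences kept its sign under all 16 alternatives. For HKDC1 they ran from 3.40 to 3.78, for PFKP from -1.22 to -1.03, for HK2 from 0.66 to 0.98 and for SLC2A1 from 0.54 to 0.83. HK1 had the widest relative range, from -0.81 to -0.074. Without both arrays of highest median, 8 members did not overlap, and so did 48.7% of all genes in this comparison of 2 arrays against 2.

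**Figure D2:**
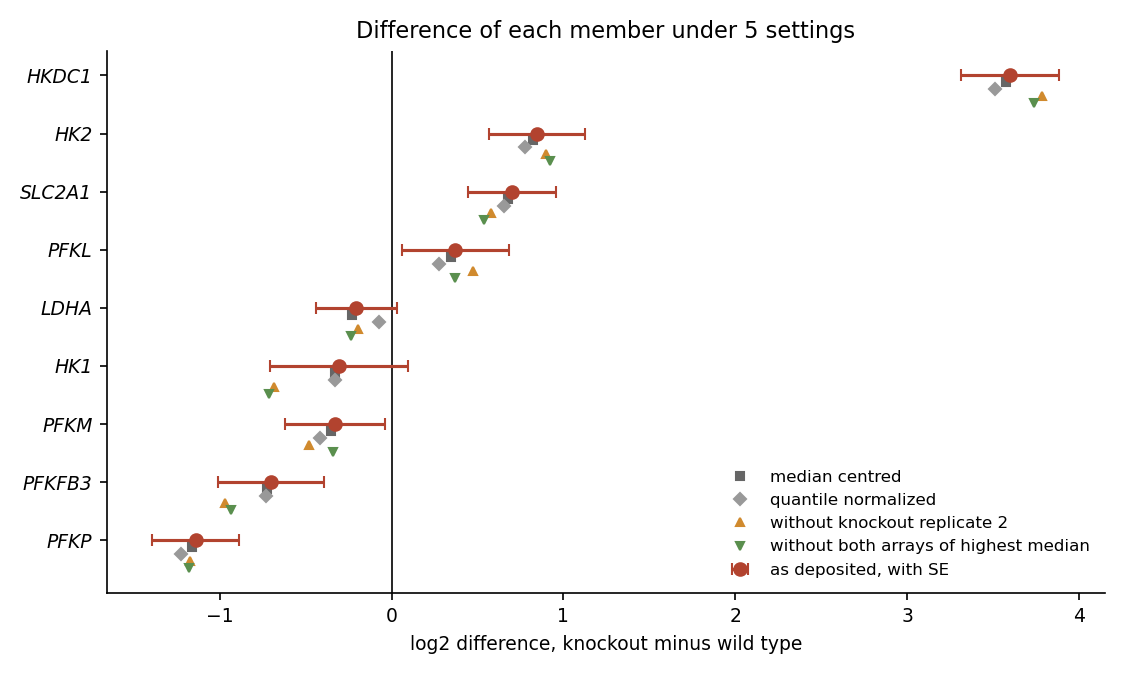
Log2 difference, knockout minus wild type, of the 9 measured genes as deposited (circle with SE from the fit) and with median centring, quantile normalization, knockout array 2 left out, or both arrays of highest median left out (symbols below each circle). HKDC1 lay between 3 and 4 in each setting, PFKP lay below -1, and as deposited LDHA, HK1, PFKM and PFKL lay nearest to 0.

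The other genes of the pathway were taken from 8 lists drawn up by role, with earlier results of these data known. Of 139 genes listed, 112 were measured, and 0 passed an adjusted p of 0.05 over all probe sets in limma, in either direction, as against 0.416% of all probe sets called higher and 0.154% called lower. At an unadjusted p under 0.05, 16 were higher and 3 lower in the knockout, where 12.2% of all probe sets had such a p in either direction. The arrays did not overlap for 26.8% of them, 19 higher and 11 lower, against 21.2% of all 13139 genes. Their median log2 difference was 0.086, against 0.073 over all genes.

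The other glycolytic enzymes showed small differences, mostly negative. Of 17 measured, 7 were higher and 10 lower, with a median of -0.19, and no difference exceeded 0.66 in size. ENO2, the neuronal enolase gene, had log2 values of 8.28, 8.99 and 8.22 on the knockout arrays and of 9.27, 9.22 and 8.97 on the wild-type arrays (difference -0.66 ± 0.30, limma adjusted p = 0.450). PKLR, the liver and red cell pyruvate kinase gene, differed by -0.62 ± 0.33. HK3, a further hexokinase gene, differed by 0.36 ± 0.45, and TPI1, the triose phosphate isomerase gene, by 0.19 ± 0.49. The log2 values of the TPI1 probe set were 4.02 to 5.57 over both genotypes, low on the scale, so its difference says little about that gene. The 4 enzymes whose arrays did not overlap, 23.5% of the 17 against 21.2% of all 13139 genes, were all lower. They were GPI (-0.29), ADPGK (-0.31), PKM (-0.37) and PGAM2 (-0.59), named after their values were seen. Among the pyruvate genes 5 of 11 were higher (median -0.10), from PDHB of pyruvate dehydrogenase (-0.43 ± 0.50) and DLAT (-0.42 ± 0.37) to the mitochondrial carrier gene MPC1 (0.30 ± 0.28) and pyruvate carboxylase, PC (0.60 ± 0.33).

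Sugar and lactate transporters other than SLC2A1 were higher in 8 of 12 cases (median 0.20). SLC2A8, an intracellular sugar transporter gene, had log2 values of 8.32, 8.22 and 8.54 on the knockout arrays, against 7.30, 7.37 and 7.25 on the wild-type arrays. It was the 1 transporter on the list without overlap, or 8.33% against 21.2% of all 13139 genes. Its difference was 1.05 ± 0.24 (limma adjusted p = 0.152). SLC2A13, which encodes a myo-inositol transporter, differed by -1.08 ± 0.54, and by -0.66 without wild-type array 1. SLC2A2, the liver and islet transporter gene, differed by 0.47 ± 0.47, with log2 values of 3.96 to 5.62 over both genotypes, low on the scale. BSG, which encodes the chaperone of lactate transporters, differed by -0.19 ± 0.26.

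Among 16 control genes of the bisphosphate and of gluconeogenesis, 11 were higher and 5 lower (median 0.27). Of these genes 6, or 37.5%, had no overlap between genotypes, against 21.2% of all 13139 genes. TIGAR, a p53 target whose product hydrolyses the bisphosphate made by PFKFB3, had log2 values of 9.67, 9.62 and 9.93 on the knockout arrays and of 8.89, 8.03 and 8.44 on the wild-type arrays. The groups did not overlap, and the difference was 1.29 ± 0.30 (limma adjusted p = 0.163). ARRDC4, an arrestin family gene induced by glucose, had 8.03, 8.21 and 8.37 on the knockout arrays and 7.44, 7.07 and 6.22 on the wild-type arrays, a difference of 1.29 ± 0.36 (adjusted p = 0.223). MLXIPL (0.85) and MLXIP (0.63), which encode glucose-sensing transcription factors, were also higher without overlap, and their partner gene MLX was lower (-0.44), all named after their values were seen. PFKFB4 was lower on every knockout array, at 7.12, 8.55 and 7.70, against 8.82, 8.81 and 8.64 on the wild-type arrays (difference -0.97 ± 0.39, adjusted p = 0.383), and as for PFKFB3 knockout array 2 was nearest to the wild type. PFKFB1 differed by -0.46 ± 0.46.

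Regulators of the hypoxia response were higher in 8 of 9 cases (median 0.28), where 7184 of all 13139 genes were higher. Among the 8, ARNT (0.020), EGLN3 (0.038) and HIF1AN (0.055), named after their values were seen, were near 0 with overlapping arrays. EPAS1, which encodes HIF-2 alpha, had log2 values of 10.11, 10.46 and 10.23 on the knockout arrays, against 8.97, 8.85 and 9.14 on the wild-type arrays. The difference was 1.28 ± 0.25 (limma adjusted p = 0.100). HIF1A differed by -0.043 ± 0.45, with groups that overlapped and a sign that turned in 4 alternatives. ARNT2, a dimerization partner, differed by 1.08 ± 0.37. HIF3A (0.89) and the prolyl hydroxylase gene EGLN2 (0.65), named after their values were seen, were the other regulators without overlap. In all, 44.4% of the 9 regulators did not overlap, against 21.2% of all 13139 genes.

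HIF targets outside the members were divided, with 9 of 16 higher and a median of 0.30. ADM, the adrenomedullin gene, differed by 1.12 ± 0.29 and DDIT4, an inhibitor of mTOR signalling, by 1.08 ± 0.27 (limma adjusted p = 0.194 and 0.189). VEGFA (0.65) and MXI1 (0.63), named after their values were seen, were also higher without overlap. NDRG1, a hypoxia and differentiation gene, was lower on every knockout array, at 9.89, 10.16 and 10.47, against 10.92, 11.23 and 10.86 on the wild-type arrays (difference -0.83 ± 0.27, adjusted p = 0.289). The collagen prolyl hydroxylase gene P4HA2 differed by -0.81 ± 0.37. In place of CA9, 12 other carbonic anhydrase genes were measured, 10 of them higher (median 0.39). CA12, the other carbonic anhydrase commonly studied at the surface of tumour cells, was lower on every knockout array, at 4.14, 5.36 and 4.52, against 6.02, 6.07 and 5.42 on the wild-type arrays (difference -1.16 ± 0.39, adjusted p = 0.292). CA11 differed by -0.82 ± 0.37 and CA1 by 0.92 ± 0.29. The CA1 values on the wild-type arrays, 3.66 to 3.93, were low on the scale, as was the lowest CA12 value of 4.14. CA14 differed by 1.60 ± 0.74, with wild-type values of 1.34 to 3.92 at the bottom of the scale.

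The pentose phosphate, hexosamine and glycogen list had 9 of 19 members higher and a median of -0.28. TKTL1, a transketolase-like gene, had log2 values of 5.90, 5.49 and 5.05 on the knockout arrays and of 4.46, 4.83 and 2.69 on the wild-type arrays (difference 1.49 ± 0.57, limma adjusted p = 0.367). Its lowest value was near the bottom of the scale, and the difference was 0.84 without wild-type array 3 and 2.47 with array weights. UAP1, of the hexosamine route, differed by 0.66 ± 0.45. GBE1, the glycogen branching enzyme gene, differed by -0.86 ± 0.42 and GYG1, which primes glycogen, by -0.49 ± 0.32.

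**Figure D3:**
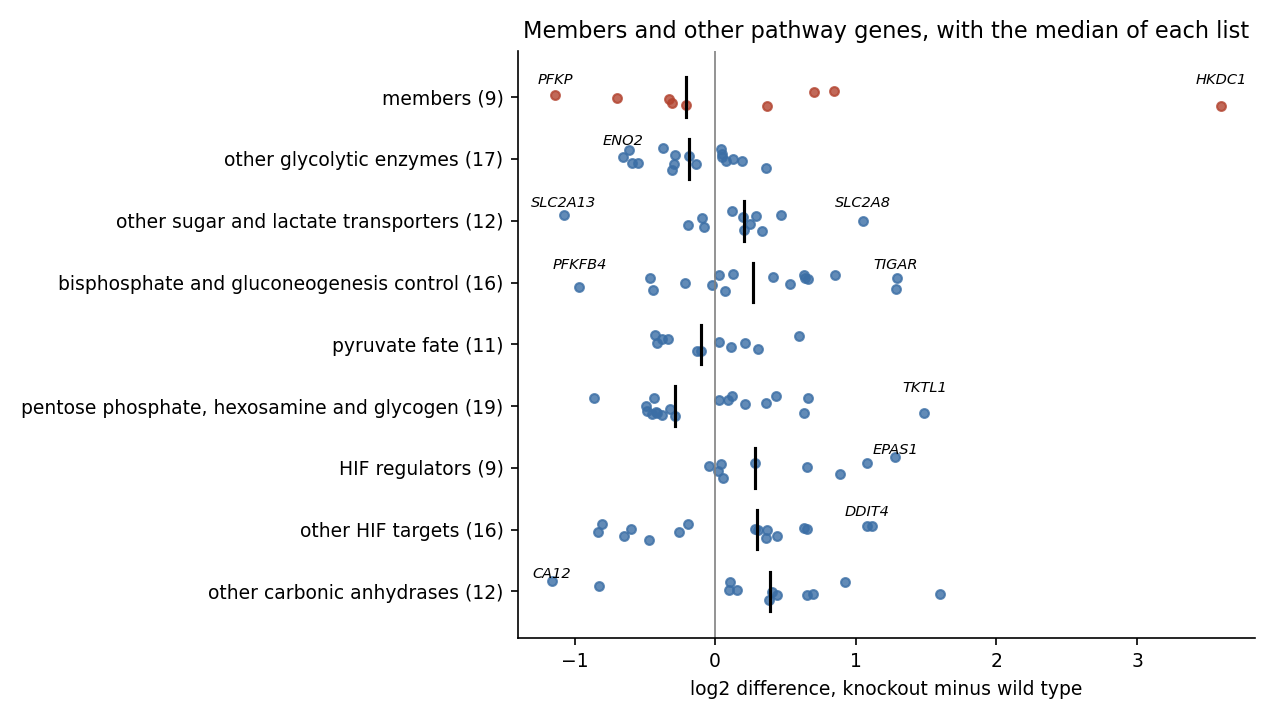
Log2 difference, knockout minus wild type, of each measured gene in the member set and in 8 lists of other pathway genes (points; number measured in brackets; vertical spread has no meaning), with a black line at each list's median. HKDC1, whose rise was a reason for choosing the set, was at 3.60, and the 112 other pathway genes ranged from -1.16 to 1.60.

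Of the 9 measured members, 4 lie on chromosome 10, and their differences were set beside those of neighbouring genes in the order of the RefSeq table. Around HKDC1, the 6 measured genes on either side, HK1 among them, differed by -1.16 to 1.39. Of these 12 genes, 7 were higher and 5 lower, 0 passed an adjusted p of 0.05 in limma and 3 had an unadjusted p under 0.05, as did 12.2% of all probe sets. The largest positive difference was that of the tetraspanin gene TSPAN15 (1.39 ± 0.26, adjusted p = 0.0924), and the immediate neighbours SUPV3L1, a mitochondrial RNA helicase gene, and HK1 were at 0.18 and -0.31.

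PFKP and PFKFB3 lie at the start of chromosome 10, as the measured genes number 6 and 20. In the set of the 11 measured genes nearest to PFKP, 5 before it and 6 after it, 7 were lower, 0 passed the adjusted p in limma and 4 had an unadjusted p under 0.05, against the same 12.2%. DIP2C, with 6.38, 7.52 and 7.12 on the knockout arrays against 8.52, 8.43 and 8.31 on the wild-type arrays, differed by -1.41 ± 0.34 (adjusted p = 0.170). PITRM1, a mitochondrial peptidase gene next to PFKP, differed by -0.94 ± 0.35. The whole stretch from the first measured gene to PFKFB3 was described after these values were seen. Leaving out both members, it held 18 genes, of which 12 were lower and 6 higher, with a median log2 difference of -0.58. Over the remaining 486 measured genes of chromosome 10 without members, the median was 0.16. Arrays did not overlap, as lower, for 7 of the 18 genes or 38.9%, against 9.26% of those 486 and 7.08% of all genes. These included FBH1 (-1.42), a DNA helicase gene that acts in recombination, the splicing factor gene RBM17 (-1.04) and ASB13 (-1.53), while CALML3 (0.87) was higher without overlap and KLF6 was at 0.022. Without both arrays of highest median the median of the 18 genes was -0.53 and 10 were lower without overlap, but so were 21.4% of those 486 genes and 22.5% of all genes in that comparison of 2 arrays against 2. The difference between the stretch and the rest of the chromosome was not tested.

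**Figure D4:**
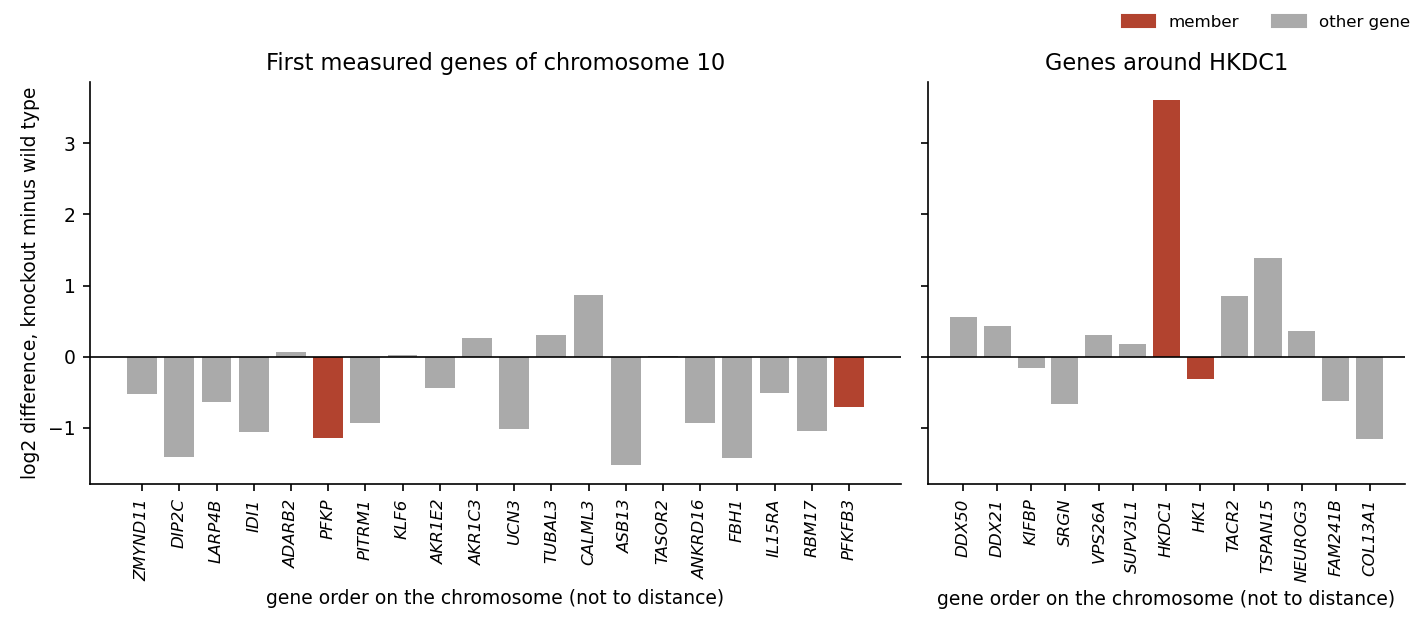
Log2 difference, knockout minus wild type, of the first 20 measured genes of chromosome 10 in gene order (left) and of HKDC1 with 6 measured genes on each side (right); bars start at 0, members are red and other genes grey. PFKP and PFKFB3 were among mostly lower genes, whereas HKDC1, chosen for its rise, was at 3.60 and its neighbours between -1.16 and 1.39.

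The genes whose pattern over the 6 arrays was most like that of HKDC1 were found by the root mean square difference of values centred on each gene's mean, among 13130 genes. They were CREB5, a transcription factor gene (0.31 log2 units), SLCO3A1, an organic anion transporter gene (0.32), the kallikrein peptidase gene KLK5 (0.40), STXBP6 (0.40) and the lipoxygenase gene ALOX5 (0.42). CREB5 had log2 values of 9.32, 9.13 and 9.12 on the knockout arrays, against 6.03, 5.67 and 5.76 on the wild-type arrays. The genes most like PFKP were DUSP6, a phosphatase gene of ERK signalling (0.075), the potassium channel gene KCNN4 (0.083), the receptor tyrosine kinase gene AXL (0.093), NUP93 of the nuclear pore (0.10) and DHODH of pyrimidine synthesis (0.11). DUSP6 had log2 values of 11.12, 11.26 and 11.28 on the knockout arrays, against 12.38, 12.43 and 12.18 on the wild-type arrays. This measure favours genes with a like difference between the genotypes, the value that chose the members. Differences of the genes named ran from 2.97 to 3.44 beside HKDC1 and from -1.21 to -1.02 beside PFKP. Whether they share regulation with a member was not tested.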

How the data were processed

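Expression was measured with Affymetrix whole-transcript arrays on 3 arrays each of BRCA2 knockout and wild-type HCT116 cells, after depletion of ribosomal RNA, per the labels' protocols. The authors deposited log2 probe set values, and RMA, R 2.11.1 and the build hg18 appear in the submitters' processing notes. The RMA steps run and any filters are not given in the sources used here, and the log2 scale was read from the values. The distributions of the deposited values differ between arrays. Of 19458 probe sets, 13301 had 1 gene symbol in the platform annotation, 2044 several and 4113 none. Symbols were updated by gene identifier to RefSeq's table of GRCh38.p14 (13280 found), used for names and gene order only. A gene with several probe sets took that of highest mean.

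Values were fitted as deposited with limma 3.58.1 (R 4.3.3; lmFit and eBayes, genotype as the single factor), with Benjamini-Hochberg adjustment over all probe sets and a threshold of 0.05. The fit was tested on simulated data. Errors of differences are the fit's SE. Precision is limited by the number of arrays. The members and lists were chosen with earlier results of these data known. Named were all members, for each list the genes called and the 2 of largest difference in each direction, called neighbours, and the 5 genes most alike in pattern to HKDC1 and to PFKP. Others are said to be named after their values were seen, and TSPAN15, SUPV3L1, DIP2C, PITRM1 and the genes of the first stretch of chromosome 10 were also named so. Alternatives left out each array in turn, both arrays of highest median, or the dimmest 30% of probe sets, centred arrays on their medians or normalized their quantiles, raised values under 4 to 4, and fitted a variance trend, robust variance, no moderation, array weights or replicate number as block.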

Additional observations from a re-analysis of the deposited data

How the results depend on the processing

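The number of probe sets called, 111 as deposited, depended on the setting. It was 175 with median centring, 174 with quantile normalization, 184 without the dimmest 30% of probe sets, 169 with values under 4 set to 4, 396 with a variance trend, 778 with array weights and 7 without both arrays of highest median. It ran from 24 to 63 with any 1 array left out. Pathway genes called numbered 0 as deposited, 1 without the dimmest 30% (EPAS1), 4 with a variance trend (EPAS1, DDIT4, ADM and TIGAR) and 5 with array weights (EPAS1, DDIT4, TIGAR, SLC2A8 and ARRDC4). Neighbouring genes called numbered 0 as deposited, 1 without the dimmest 30%, 1 with a variance trend and 2 with array weights. The differences of HKDC1 and PFKP moved by less than the SD between arrays, pooled over both genotypes, in every alternative run. Some of these alternatives change only the error and leave a difference as it is. The members without overlap numbered 6 with median centring (21.6% of all genes did not overlap then), 7 without knockout array 2 (41.0%) and 8 without both arrays of highest median (48.7%), settings added after the data were seen, so the share over all genes grew as well when arrays were left out. Among named genes with differences near 0, the sign turned for HIF1A (0.13 with array weights, 0.062 without both arrays of highest median, and -0.31 to 0.33 with any 1 array left out, positive without wild-type array 1 or knockout array 3), for TPI1 (-0.11 to 0.67 with any 1 array left out, negative without wild-type array 2 or knockout array 3) and for SLC2A2 (-0.13 without both arrays of highest median). The cause was not tested.

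The replicate numbers did not pair the arrays. The correlations of same-numbered arrays' deviations from their genotype means were -0.24, -0.43 and 0.058 across probe sets, and with the replicate number as a block 3 probe sets were called, 0 of them members. With a variance trend and with array weights 2 members were called, HKDC1 and PFKP.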

Other observations

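A further probe set carried the symbols of both SENP1 and PFKM and was left out of the member values. Its log2 values were 7.89, 8.45 and 7.87 on the knockout arrays and 8.67, 7.70 and 7.82 on the wild-type arrays, a difference of 0.0088, where the probe set of PFKM alone gave -0.33. The stretch described on chromosome 10 ended at PFKFB3 because that gene is a member. Past PFKFB3, the next measured gene, PRKCQ, a kinase gene of T cell signalling, was higher without overlap (1.41). Among the genes numbered 22 to 30, KIN (-1.81), ATP5F1C of the ATP synthase (-0.83), GATA3 (-0.68), USP6NL (-1.10) and ECHDC3 (-5.41) were lower without overlap. Over all genes, 7.08% were lower without overlap. None of the genes numbered 22 to 30 was higher without overlap, and ITIH2 (1.05) and CELF2 (0.84) were higher on average with overlapping arrays. These limits were set after the values were seen. From number 31 on, the next genes without overlap were higher, among them PROSER2 (0.51), DHTKD1 (0.74), CAMK1D (1.54) and OPTN (0.71). The next gene lower without overlap was CUBN (-1.92), number 56. All were named after their values were seen, and none of these differences was tested as a group.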
